A study of Acipenser transmontanus and Acipenser medirostris with 18 samples.

Results

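The dorsal skin library was prepared from dissected skin of the back of white sturgeon (Acipenser transmontanus). It was set against the other 5 white sturgeon tissues that were sequenced: barbel, ampullae of Lorenzini, rim of the protrusible mouth, upper palate and esophagus. It is 1 of 18 libraries of PacBio Iso-Seq, a method that reads whole transcripts, and 1 of 6 made from tissue rather than from cultured cells. All 6 tissues carried the label octoploid. The study took tissue from broodstock without experimental treatment and, for white sturgeon, also from fish of a caviar producer, and the labels do not say which fish gave which piece. Each tissue had 1 library, so no value below has a replicate and every interval covers counting error alone. The batch number in the labels is the barcode of each library and differs for all 6, so that it divides the tissues no further, and fish and site cannot be told apart.

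The loci described were chosen by their place outside the range of the 5 other tissues. Counts were summed over the transcripts of each PacBio locus (PB followed by a number) and divided by the library's annotated counts, those of transcripts with a sterlet protein name. A locus was taken as higher where its share was at least 2-fold the highest of the 5 others. The 95% counting interval of that ratio had to lie above 1. A locus was taken as lower where its share was at most 0.5 of the lowest, with the interval under 1. For the 2 higher loci with 0 counts in all 5 others, barbel, the deepest library, stood as the highest. Neither of these 2 had an interval above 1 against each of the 5. Of 4687 loci with at least 10 counts over the 6 tissues, 105 were higher and 13 were lower in dorsal skin. These are 2.24% and 0.277% of the loci examined, and the choice itself fixes their direction. A locus with 0 counts in any of the 5 others could not be lower, and esophagus had counts at 3728 loci in all. Fewer than 4687 loci could thus be lower, here and where 0.277% is used below. The numbers of higher and lower loci do not compare directly.

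Sturgeon skin has no scales over most of the body and is a living stratified epithelium over a dermis. Its keratinocytes are held together by keratin filaments and desmosomes, and it is exposed to water without a dead cornified layer. Pigment cells of fish skin arise from the neural crest. Melanophores make melanin in melanosomes, where tyrosinase carries out the first step of the pathway, and the ligand of the Kit receptor sustains such cells in fish and mammals. The barbel and ampullae are sensory outgrowths and pores of the snout, while the palate and esophagus are mucosae.

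Dorsal skin held 128478 counts, of which 121180 were annotated, and the 5 other tissues held 19427 to 195889 annotated counts. Counts of unnamed transcripts made up 5.68% of the dorsal skin library, 4.07% in barbel and 9.50% to 34.8% in the other 4 tissues. A single count stood for 0.000825% of the annotated dorsal skin counts. Dorsal skin and esophagus had the most loci above the range of the other tissues by this rule, 105 and 101, against 18 to 30 for the remaining 4. Thinned to the 19427 annotated counts of the shallowest library, the numbers were 27 for dorsal skin and 55 for esophagus, against 3 to 12.

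**Figure D1:**
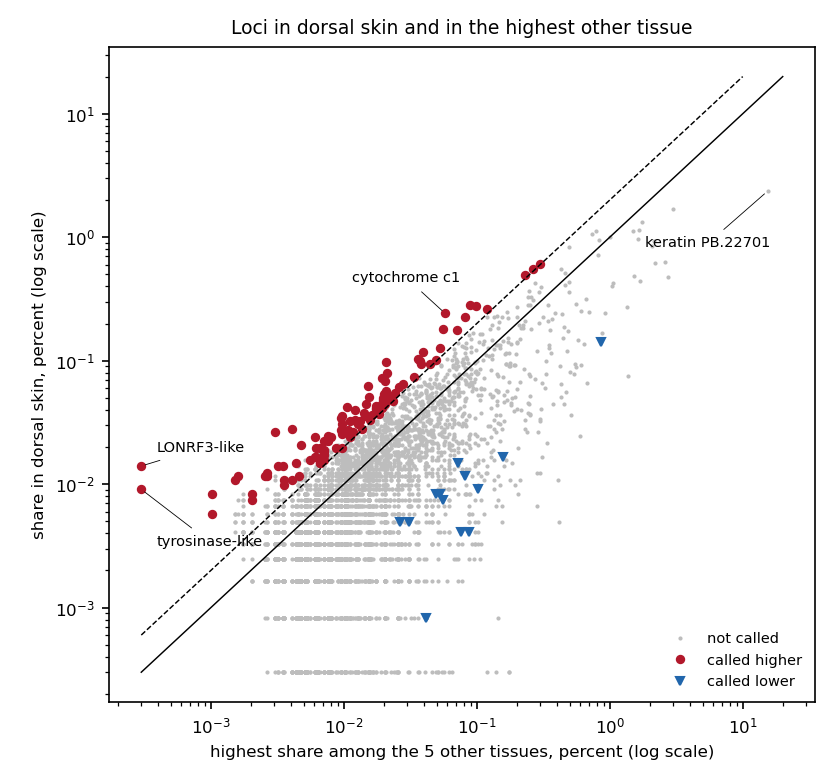
Each point is a PacBio locus, with its share of annotated counts in dorsal skin (y axis, percent, log scale) against the highest share among the 5 other tissues (x axis, percent, log scale), and loci with 0 counts drawn at the edge. The solid line marks equal shares and the dashed line 2-fold: the 105 higher loci (red circles) lie on or above the dashed line, while the 13 lower loci (blue triangles) and the abundant keratin PB.22701 lie far below the solid line.

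The 105 higher loci had a median ratio of 2.69 to the highest other tissue, and 15 of them reached 4-fold. They held a median of 40 counts in dorsal skin (range 7 to 731), and 98 of them had more than 1 transcript there. Together they made up 6.80% of the annotated counts of dorsal skin, against 1.19% to 2.41% in the other tissues. The highest of the others was barbel for 56 loci, mouth rim for 18, ampullae for 15, upper palate for 11 and esophagus for 3, and 2 loci had 0 counts in all 5. Near the threshold, transmembrane protein 165-like (PB.595, ratio 2.00) was counted as higher and the ribonuclease ZC3H12A-like (PB.22228, ratio 1.98) was not. When the interval had to lie above 1 against each of the 5 tissues, and not against the highest alone, 65 loci (1.39%) were higher and 11 (0.235%) lower. With the libraries scaled by TMM factors, which lower the weight of the most abundant transcripts, 68 loci were higher, 59 of them among the 105.

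Pigment genes were set beside the label of the library. Tyrosinase-like (PB.9649) had 11 counts in dorsal skin and 0 counts in each of the 5 other tissues. Its share in dorsal skin was 0.00908% (95% Clopper-Pearson interval 0.00453% to 0.0162%), 13.8-fold the share that 3 counts over the 5 tissues would give. The counting interval of its ratio to the 5 tissues together began at 9.47. In the shallow esophagus library, 0 counts left shares up to 0.019% inside the interval, so it was not separated from esophagus alone. A membrane-associated transporter protein (PB.909, the SLC45A2 protein of melanosomes) had 9 counts in dorsal skin and 0 in the other 5. That is 11.3-fold the share of 3 counts (interval of the ratio to the 5 together from 7.45), but it stayed under the minimum of 10 counts. The sodium/potassium/calcium exchanger 5-like locus (PB.16400), whose mammalian relative also sits in the pigment granule pathway, had 2 counts in dorsal skin and 0 in the other 5. These 3 loci are named for their counts of 0 elsewhere, and the whole list of pigment genes follows. Tyrosinase-like was thus present under the label of dorsal skin, at a level of a few counts. This is no independent check of the label. The same counts made the locus higher, and the lists were made with earlier results known.

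The other pigment loci were at or near 0. Of the 10 loci whose names matched the list of pigment genes, melanophilin-like, both Rab-38-like loci, Rab-32-like and a purine nucleoside phosphorylase-like locus had 0 counts in dorsal skin. The 2 sepiapterin reductase-like loci, enzymes of the pteridine pathway, had 5 and 3 counts in dorsal skin, against 8 and 8 summed over the other 5 tissues. With these included, the list held 0.0248% of dorsal skin counts, against 0.00408% in barbel, 0.00304% in ampullae, 0.0044% in mouth rim, 0% in upper palate and 0.0103% in esophagus. The ratio of 2.40 to esophagus had an interval from 0.61, so the list as a whole was not separated from that shallow library.

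Kit ligand-like (PB.13101) was also among the higher loci. It had 43 counts in dorsal skin, against 8 in barbel, 8 in ampullae, 10 in mouth rim, 9 in upper palate and 2 in esophagus. As a share it was 2.47-fold the highest other tissue, upper palate (interval 1.19 to 5.77), and 8.69-fold barbel (4.04 to 21.4). Kit ligand-like did not have an interval above 1 against each of the other tissues, and its esophagus share rested on 2 counts. The Kit receptor loci (PB.596 and PB.2041) had 1 count in dorsal skin and 3 in the other tissues together, which is too few to compare.

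A further locus without a single count in the other tissues was LON peptidase N-terminal domain and RING finger protein 3-like (PB.16986), a ring finger protein, with 17 counts in dorsal skin. Its share was 21.4-fold that of 3 counts over the 5 others, and the interval of its ratio to the 5 together began at 15.6. The upper limit at 0 counts in esophagus, 0.019%, was above its dorsal skin share of 0.014%. A related locus, LON peptidase N-terminal domain and RING finger protein 1 (PB.2058), had 29 counts in dorsal skin, against 12 in barbel, 3 in ampullae, 4 in mouth rim and 0 in both upper palate and esophagus. The largest ratio with counts on both sides belonged to an uncharacterized protein (PB.3228), with 32 counts in dorsal skin, 6 in barbel and 0 in the other 4, a ratio of 8.62 to barbel (interval 3.56 to 25.2). These 3 loci shared an order in which barbel, or no tissue at all, came next after dorsal skin.

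**Figure D2:**
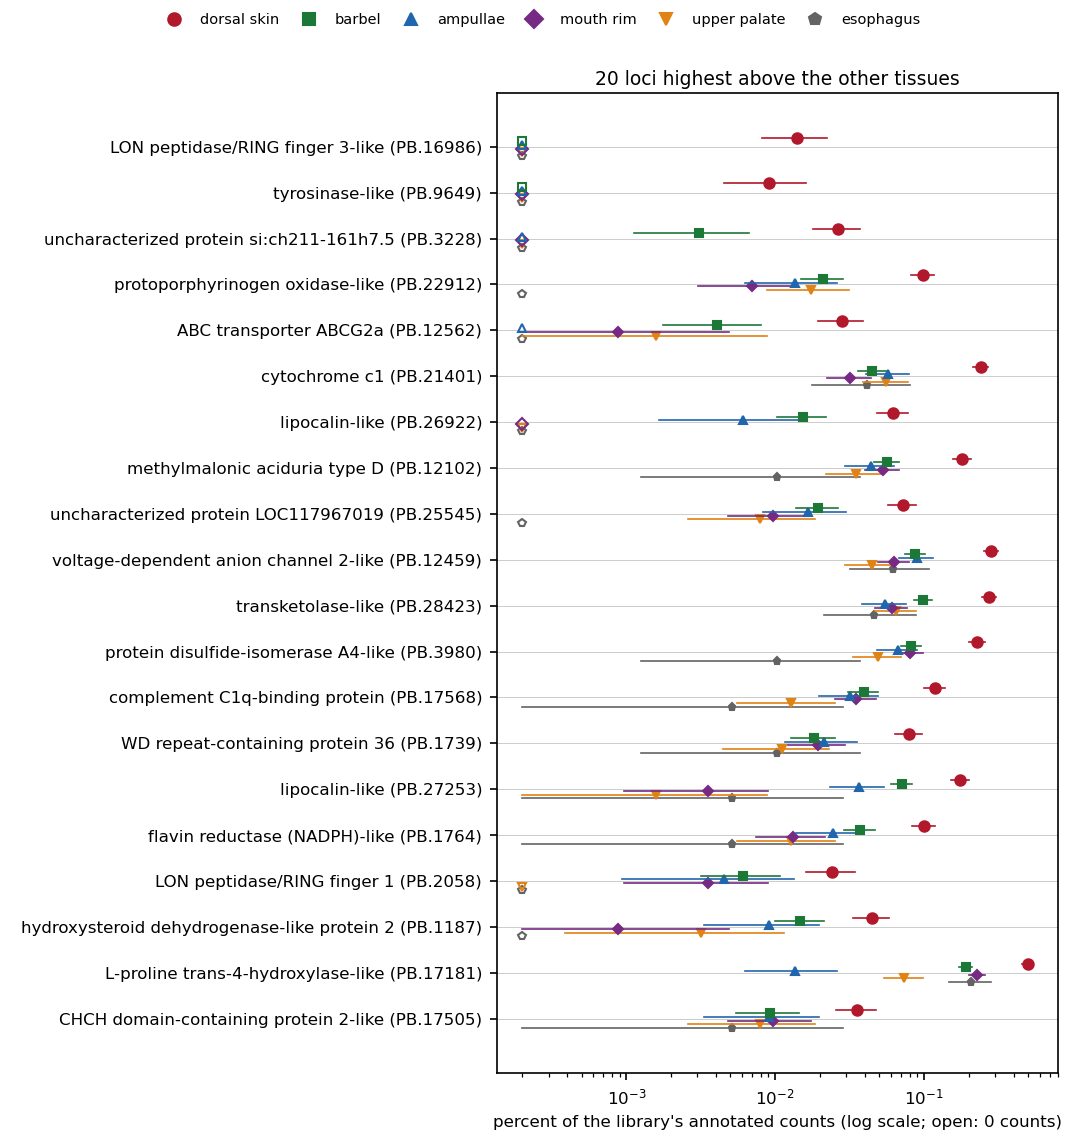
The 20 higher loci whose counting interval lay farthest above 1, from the top down, with the share of annotated counts on the x axis (percent, log scale), 1 marker per tissue library and bars for the 95% Clopper-Pearson interval. Dorsal skin (red circles, uppermost in each row) lies to the right of the 5 other tissues in every row, and open markers at the left edge stand for 0 counts, as in the 5 other tissues for tyrosinase-like.

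Mitochondrial proteins made up 24 of the 105 higher loci. This role, like the others below, was assigned from the protein name to the higher loci alone after the values were seen, and such genes were not counted among all 4687 loci, so these numbers describe the higher loci and have no background. Cytochrome c1 (PB.21401), the subunit of respiratory complex III that passes electrons to cytochrome c, was among them. Its share was 0.242% in dorsal skin, against 0.0449% in barbel, 0.0578% in ampullae, 0.0317% in mouth rim, 0.0558% in upper palate and 0.0412% in esophagus. The 5 other tissues lay close together, and dorsal skin was 4.18-fold the highest of them (2.98 to 6.03). The other locus of the same name (PB.19859) was 3.00-fold the highest (1.15 to 9.93), with 0.0239% in dorsal skin.

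The voltage-dependent anion-selective channel 2-like locus (PB.12459), the pore of the outer mitochondrial membrane, held 0.281% in dorsal skin, against 0.0873% in barbel, 0.0897% in ampullae, 0.0625% in mouth rim, 0.0446% in upper palate and 0.0618% in esophagus. Dorsal skin was above all of them, 3.14-fold over ampullae (2.37 to 4.21). Both prohibitins, which scaffold the inner membrane, were also higher: prohibitin (PB.20625) at 0.101% in dorsal skin, against 0.0343% to 0.0495%, and prohibitin-2-like (PB.16087) at 0.0949%, against 0.0154% to 0.0446%. Complement component 1 Q subcomponent-binding protein (PB.17568), which despite its name is mainly a protein of the mitochondrial matrix, held 0.118% in dorsal skin, against 0.00515% to 0.0393%. CHCHD2-like (PB.17505) held 0.0355%, against 0.00515% to 0.00968%, and the mitochondrial ribosomal protein L46 (PB.21165) held 0.0421%, against 0.00319% to 0.0106%.

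The wider respiratory chain list moved in the same direction without being uniform. Of its 59 loci examined, 6 were higher and 1 was lower, where 2.24% and 0.277% of all loci were. The pooled share of the 5 other tissues was exceeded by 47, with a median ratio of 1.72. All loci had a median of 1.08, and 53.7% lay above. As a sum the list held 2.21% of dorsal skin counts, against 1.21% in barbel, 0.982% in ampullae, 1.05% in mouth rim, 1.22% in upper palate and 1.11% in esophagus. Dorsal skin was 1.81-fold the highest (1.67 to 1.97), and the other 5 did not spread far. The mitochondrial ribosome, a list added after the values were seen, held 0.522% in dorsal skin, against 0.181% to 0.274%, with 41 of 48 loci above the pooled others and a median ratio of 2.09. That list was picked with its direction known, so these numbers describe it and are no test. The cytosolic ribosome did not follow: 6 of its 88 loci lay above the pooled others (median ratio 0.50), and its sum was 1.63% in dorsal skin, against 1.32% in barbel, 2.39% in ampullae, 3.62% in mouth rim, 6.79% in upper palate and 12.1% in esophagus. Dorsal skin was second lowest there, above barbel.

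Protoporphyrinogen oxidase-like (PB.22912), the mitochondrial enzyme of the next to last step of heme synthesis, had 119 counts in dorsal skin, against 41 in barbel, 9 in ampullae, 8 in mouth rim, 11 in upper palate and 0 in esophagus. The share was 4.69-fold that of barbel, the highest other (3.26 to 6.87). A broad substrate specificity ATP-binding cassette transporter (PB.12562, ABCG2), an exporter of porphyrins and many foreign compounds in mammals, had 34 counts in dorsal skin, 8 in barbel, 1 each in mouth rim and upper palate and 0 in ampullae and esophagus, 6.87-fold over barbel (3.12 to 17.2). 5-aminolevulinate synthase (PB.17729), the first enzyme of the heme pathway, was not higher: it held 0.116% in dorsal skin, between 0.051% in upper palate and 0.165% in esophagus. Over the heme synthesis list, added after the values were seen, dorsal skin held 0.229%, against 0.0722% to 0.175%, and the ratio of 1.31 to esophagus had an interval from 0.916. The blood list, almost all of it 5-aminolevulinate synthase, was inside the range (0.12%, against 0.0556% to 0.165%).

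Enzymes of protein folding and glycosylation in the endoplasmic reticulum were also among the 105, where 9 loci belonged to the endoplasmic reticulum and Golgi by the roles assigned after the ranking. Protein disulfide-isomerase A4-like (PB.3980), which forms disulfide bonds in secreted proteins, held 0.228% in dorsal skin, against 0.0822% in barbel, 0.0669% in ampullae, 0.081% in mouth rim, 0.0494% in upper palate and 0.0103% in esophagus. It was 2.77-fold the highest (2.27 to 3.39). The 48 kDa subunit of the oligosaccharyltransferase (PB.18607), which adds glycans to nascent proteins, was the most counted of all higher loci, with 731 counts and 0.603% in dorsal skin, against 0.0875% to 0.297%. Of the 15 loci examined in the list of folding and glycosylation genes, 13 lay above the pooled others, where 53.7% of all loci did. These genes, as a list added after the values were seen, held 1.20% in dorsal skin, against 0.257% to 0.562%. The list was picked with its direction known, so its number beside that of all loci is no test. Genes of mucus itself did not stand with them: the mucous secretion list held 0.0388% in dorsal skin, against 0.0259% in ampullae, 0.0378% in barbel and 0.134% to 0.535% in the mouth rim, palate and esophagus.

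Chaperones of the cytosol were high as a list. Heat shock protein 90-beta (PB.5335) held 0.548% in dorsal skin, against 0.266% in barbel, 0.259% in ampullae, 0.233% in mouth rim, 0.199% in upper palate and 0.206% in esophagus. It was the member of the heat shock list that was higher by the rule, 2.06-fold over barbel (1.83 to 2.32). All 12 loci examined lay above the pooled others, where 53.7% of all loci did (median ratios 2.16 and 1.08). The sum was 3.07% in dorsal skin, against 1.01% to 1.91%. The 2 heat shock cognate 70 kDa loci, folding proteins of unstressed cells as well, were the most abundant: PB.24769 held 1.07%, against 0.383% to 0.738%, and PB.24767 held 0.949%, against 0.172% to 0.836%. The immediate early list, transcription factors that respond fast to stimulation, was by contrast under all 5 others at 0.506% in dorsal skin, against 0.779% to 1.57%. Of its 3 loci examined, 0 lay above the pooled others (median ratio 0.44, against 1.08 over all loci). Without jun-D-like (PB.24309) the sum was 1.90-fold the lowest other tissue and so no longer under all 5.

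The proliferation list was above all 5 other tissues as a sum, while most of its loci were not higher by the rule. Its most counted locus, the replication helicase subunit mcm4-A (PB.4170), had 86 counts in dorsal skin, against 97 in barbel, 15 in ampullae, 33 in mouth rim, 5 in upper palate and 0 in esophagus. As a share it was 1.43-fold barbel (1.06 to 1.94) and so under 2-fold. Of the higher loci with a role in cell division, ribonucleoside-diphosphate reductase subunit M2 (PB.6881), which supplies DNA precursors, had 10 counts in dorsal skin, 2 in barbel, 1 in mouth rim and 0 in the other 3. G2/mitotic-specific cyclin-B1 (PB.1626) had 14 counts in dorsal skin, 5 in barbel and 0 in the other 4. Another helicase subunit, MCM6 (PB.10595) had 17 counts in dorsal skin, against 4 in barbel, 2 in ampullae, 4 in mouth rim and 0 in both upper palate and esophagus. The choice of these 3 as higher loci fixes that dorsal skin leads in each. None of the 3 had an interval above 1 against each of the 5 tissues. Of the 9 loci of the proliferation list examined, 2 were higher (22.2%, against 2.24% of all loci). Above the pooled others lay 8 of the 9, where 53.7% of all loci did (median ratios 3.18 and 1.08). The minimum of 10 counts includes dorsal skin, so a locus rare elsewhere can enter through the counts that make it higher. The share of higher loci therefore describes the list and is no test. The list held 0.201% in dorsal skin, against 0.106% in barbel, 0.0487% in ampullae, 0.0783% in mouth rim, 0.0175% in upper palate and 0% in esophagus. The ratio to barbel was 1.90 (1.57 to 2.29). In bulk tissue, more cells of a type and more RNA per cell cannot be told apart, here or for any other list.

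By the roles assigned after the ranking, another 10 of the higher loci act in ribosome assembly, RNA polymerases or tRNA. WD repeat-containing protein 36 (PB.1739), needed for processing of ribosomal RNA, held 0.0792% in dorsal skin, against 0.0184% in barbel, 0.0213% in ampullae, 0.0194% in mouth rim, 0.0112% in upper palate and 0.0103% in esophagus. Dorsal skin was 3.72-fold the highest (2.11 to 7.06). Of 3 lists added after the values were seen, the tRNA ligases held 0.870% in dorsal skin, against 0.533% to 0.674%, the nuclear pore held 0.301%, against 0.146% to 0.206%, and the proteasome held 0.781%, against 0.478% to 0.562%. All were above the range of the other tissues, but by less than the 2-fold of the rule, and translation factors were inside it at 4.22%, against 2.78% to 6.94%.

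By the same assignment 7 of the higher loci were enzymes of redox, glutathione and sugar phosphate metabolism. Transketolase-like (PB.28423), which shuttles carbon in the pentose phosphate pathway, held 0.275% in dorsal skin, against 0.099% in barbel, 0.0548% in ampullae, 0.0607% in mouth rim, 0.0654% in upper palate and 0.0463% in esophagus. Its ratio to barbel was 2.77 (2.32 to 3.33), and the other transketolase-like locus (PB.17682) was 2.44-fold the highest (1.803 to 3.31). Flavin reductase (NADPH)-like (PB.1764), the enzyme that also reduces biliverdin, held 0.0999% in dorsal skin, against 0.00515% to 0.0373%. Glutathione S-transferase P-like (PB.2361), a conjugating enzyme of detoxification, had 83 counts in dorsal skin, against 28 in barbel, 3 in ampullae, 12 in mouth rim, 8 in upper palate and 4 in esophagus. Its smallest ratio, to esophagus, was 3.33 (1.25 to 12.5) and rested on those 4 counts. The list of pentose phosphate and glycolysis enzymes was added after the values were seen. It had 3 of 21 loci higher (14.3%, against 2.24% of all loci). Because the higher loci were known when the list was made, this share describes the list and tests nothing. Its sum of 1.36% in dorsal skin did not exceed esophagus (ratio 0.994, 0.872 to 1.14).

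Both lipocalin-like loci of the table were higher in dorsal skin. Lipocalins are small secreted carriers of hydrophobic molecules. PB.27253 had 213 counts in dorsal skin, against 139 in barbel, 24 in ampullae, 4 in mouth rim, 1 in upper palate and 1 in esophagus. PB.26922 had 75 counts in dorsal skin, against 30 in barbel, 4 in ampullae and 0 in each of the other 3. As shares they were 2.48-fold (1.99 to 3.09) and 4.04-fold (2.61 to 6.39) those of barbel, so that dorsal skin, barbel and ampullae had them and the mouth rim, palate and esophagus had almost none. In the 5 white cultures both loci had 0 counts.

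Other higher loci fell outside these groups. L-proline trans-4-hydroxylase-like (PB.17181) had 604 counts in dorsal skin, or 0.498%, against 0.191% in barbel, 0.0137% in ampullae, 0.229% in mouth rim, 0.0733% in upper palate and 0.206% in esophagus. It was 2.18-fold mouth rim (1.88 to 2.53) and 36.4-fold ampullae (19.1 to 80.02). The protein of methylmalonic aciduria and homocystinuria type D (PB.12102), which passes vitamin B12 to its enzymes, held 0.181% in dorsal skin, against 0.0103% to 0.0562%. Hydroxysteroid dehydrogenase-like protein 2 (PB.1187) held 0.0446% in dorsal skin, against 0% to 0.0148%, and the uncharacterized protein at PB.25545 held 0.0718%, against 0% to 0.0194%. The ammonium transporter Rh type B (PB.23156), a gas and ammonia channel, held 0.264% in dorsal skin, against 0.0847% in barbel, 0.12% in ampullae, 0.0607% in mouth rim, 0.0845% in upper palate and 0.0257% in esophagus, 2.20-fold the highest (1.71 to 2.85). The ionocyte list that goes with ion and acid transport was above the range by a small margin, 0.484% in dorsal skin, against 0.185% to 0.414% (ratio 1.17, interval 1.04 to 1.33), and none of its 29 loci was higher by the rule. Of the 29, 16 lay above the pooled others, where 53.7% of all loci did (median ratios 1.04 and 1.08), so by locus the list was close to all loci.

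**Figure D3:**
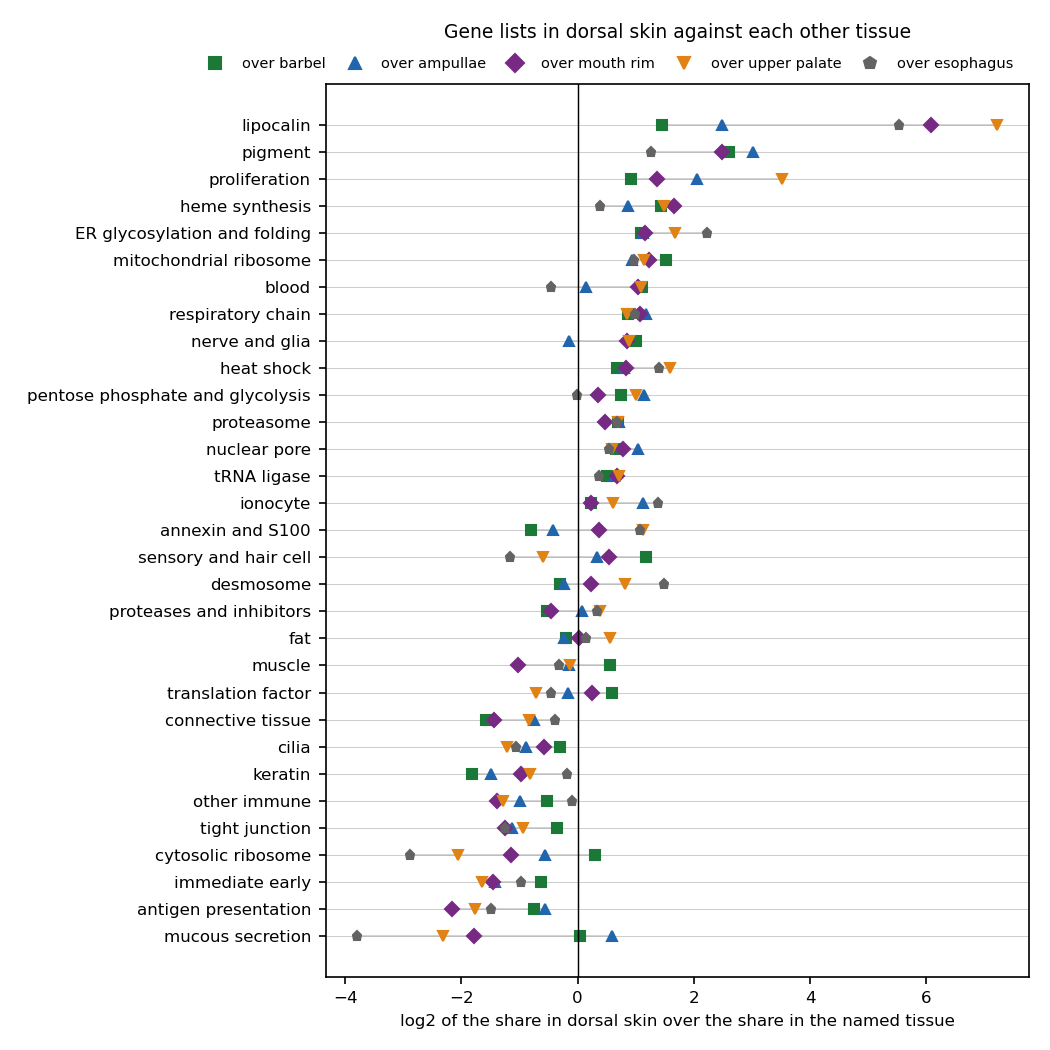
Each row is a list of genes, with 1 marker per other tissue at the log2 of the list's share in dorsal skin over its share in that tissue (x axis), so that markers right of the line at 0 mean more in dorsal skin. The mitochondrial, chaperone, endoplasmic reticulum and proliferation lists lie to the right against all tissues drawn, the keratin, connective tissue, tight junction and antigen presentation lists lie to the left, and pairs with 0 counts in a tissue are not drawn.

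Over the 25 lists of cell type markers and pathways, dorsal skin was above all 5 other tissues in 5 and under all 5 in 7. Of the 9 lists added after the values were seen it was above all 5 in 7 and under all 5 in 0, and these lists were picked with their direction known. The lists of sensory and hair cells (0.0116% in dorsal skin, against 0.0051% to 0.0257%) and of proteases and their inhibitors (0.463%, against 0.352% to 0.667%) were inside the range. Of the 105 higher loci, 26 belonged to a list, the added lists included, and 79 to none. How many of all loci examined belonged to a list was not counted, so these numbers have no background. The paralogous copies of the sturgeon genome can share reads, and 33 of the higher loci had another examined locus of the same name. These include 6 names with both loci among the 105. Of the 21 other loci that were not higher by the rule, 16 lay above the pooled share of the 5 other tissues, where 53.7% of all loci did.

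The 13 lower loci had a median ratio of 0.32 to the lowest other tissue and a median of 10 counts in dorsal skin. Mannose-binding protein C-like (PB.5069), a collectin of the lectin pathway in mammals, was lowest: 1 count in dorsal skin, against 24 in barbel, 8 in ampullae, 25 in mouth rim, 15 in upper palate and 8 in esophagus. Its ratio to ampullae was 0.0678 (0.00153 to 0.506). Transcription factor HES-4-like (PB.18626), a transcriptional repressor that acts downstream in the Notch pathway, held 0.0165% in dorsal skin, against 0.0653% in barbel, 0.0973% in ampullae, 0.121% in mouth rim, 0.156% in upper palate and 0.0927% in esophagus. It was 0.253 of the lowest (0.149 to 0.407), and its interval lay farthest under 1 of the 13. The nucleolar RNA helicase 2-like locus (PB.7747) was the most counted of them, with 0.143% in dorsal skin, against 0.31% to 0.858%.

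**Figure D4:**
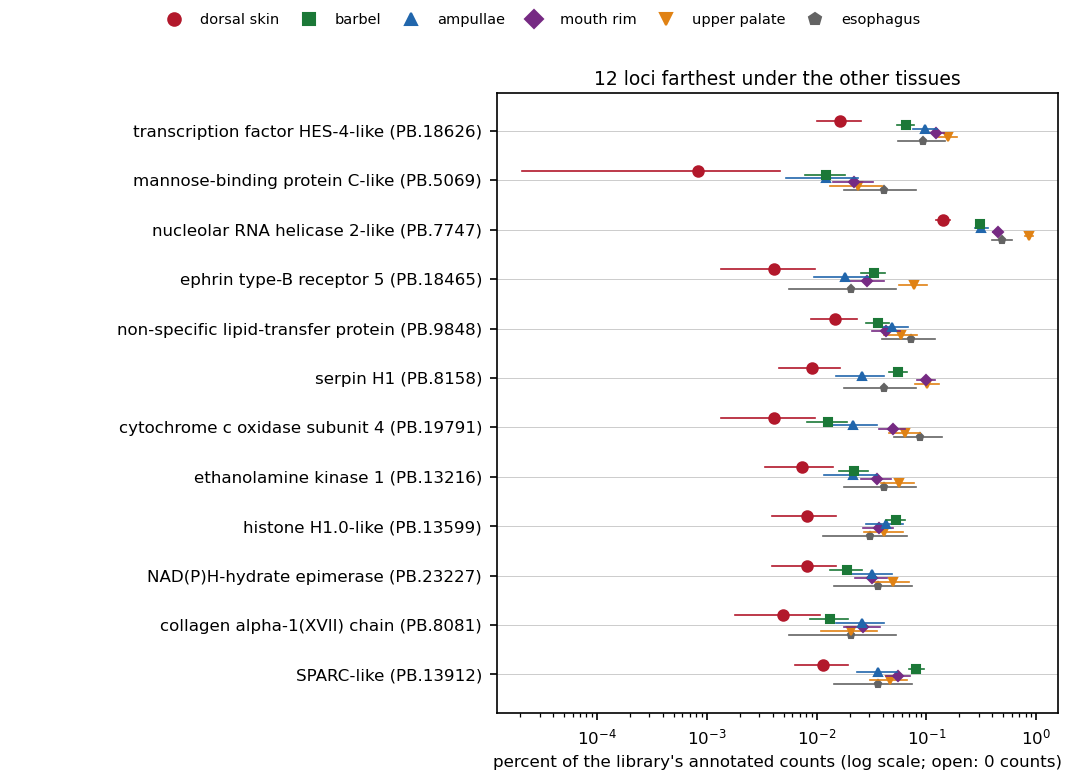
The 12 lower loci whose counting interval lay farthest under 1, with the share of annotated counts on the x axis (percent, log scale), 1 marker per tissue library and bars for the 95% Clopper-Pearson interval. Dorsal skin (red circles, uppermost in each row) lies to the left of all 5 other tissues, most widely for mannose-binding protein C-like, which rests on 1 count.

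Genes of the matrix and of its attachment stood among the lower loci. Serpin H1 (PB.8158), the chaperone of collagen, had 11 counts in dorsal skin, against 109 in barbel, 17 in ampullae, 113 in mouth rim, 64 in upper palate and 8 in esophagus. As shares these are 0.00908% in dorsal skin, against 0.0259% in ampullae as the lowest other tissue (ratio 0.351, 0.149 to 0.795). SPARC-like (PB.13912), a matrix protein of connective tissue, had 14 counts in dorsal skin, against 159 in barbel, 24 in ampullae, 63 in mouth rim, 29 in upper palate and 7 in esophagus (ratio to the lowest 0.321, 0.121 to 0.939). Collagen alpha-1(XVII) (PB.8081), which anchors basal keratinocytes to the basement membrane, had 6 counts in dorsal skin, against 26, 17, 30, 13 and 4 in barbel, ampullae, mouth rim, upper palate and esophagus. In a more abundant collagen alpha-1(XVII) locus (PB.12291) dorsal skin held 0.0512%, against 0.036% in esophagus and 0.0829% to 0.196% in the other 4, and so was not below all of them.

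The connective tissue list as a whole held 0.157% in dorsal skin, against 0.469% in barbel, 0.263% in ampullae, 0.426% in mouth rim, 0.281% in upper palate and 0.206% in esophagus. It includes the 2 collagen alpha-1(XVII) loci above, of a keratinocyte protein. PB.12291 alone had 62 of the list's 190 counts in dorsal skin, 383 of 919 in barbel and 86 of 173 in ampullae. In mouth rim it had 203 of 484, in upper palate 52 of 176 and in esophagus 7 of 40. The level without these loci was not computed. Of the list's 20 loci examined 2 were lower (SPARC-like and PB.8081) and 1 was higher, where 0.277% and 2.24% of all loci were. The pooled others were exceeded by 5 (median ratio 0.28, against 1.08 over all loci). The ratio of 0.761 to esophagus had an interval up to 1.10, and it turned to 1.10 with all counts as the denominator. Vimentin-like (PB.3825), the intermediate filament of mesenchymal cells, went the other way, with 42 counts in dorsal skin, against 18 in barbel, 5 in ampullae, 2 in mouth rim, 6 in upper palate and 0 in esophagus, 3.62-fold the highest (1.53 to 10.4). Vessel, muscle, nerve and fat lists were inside the range of the other tissues (0.00413%, 0.0248%, 0.0206% and 0.08% in dorsal skin), the bone list had 0 counts in all 6, and the cilia list held 0.0124%, against 0.0153% to 0.0287%. How much dermis each piece held is not given, and the part of the connective tissue level in the other values was not tested.

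The remaining lower loci were of several kinds. Ephrin type-B receptor 5 (PB.18465), a receptor of cell contact, had 5 counts in dorsal skin, against 65 in barbel, 12 in ampullae, 33 in mouth rim, 48 in upper palate and 4 in esophagus. Histone H1.0-like (PB.13599), a linker histone of resting cells, had 10 counts in dorsal skin, against 103 in barbel, 28 in ampullae, 42 in mouth rim, 26 in upper palate and 6 in esophagus. Cytochrome c oxidase subunit 4 (PB.19791) was the only locus of the respiratory chain list that was lower by the rule, with 0.00413% in dorsal skin, against 0.0128% to 0.0875%. Non-specific lipid-transfer protein (PB.9848), ethanolamine kinase 1 (PB.13216) and NAD(P)H-hydrate epimerase (PB.23227) held 0.0149%, 0.00743% and 0.00825% in dorsal skin, 0.41, 0.349 and 0.437 of the lowest other tissue. Just past the threshold, transmembrane protein 40-like (PB.17681) had a ratio of 0.52 and was not counted. The number of lower loci depends on the tissues they are set against: without barbel 56 loci were lower, without ampullae 31 and without esophagus 21.

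Genes of antigen presentation were low in dorsal skin as a sum, without an immune locus among the 13 beyond mannose-binding protein C-like. The antigen presentation list held 0.342% in dorsal skin, against 0.571% in barbel, 0.503% in ampullae, 1.53% in mouth rim, 1.16% in upper palate and 0.963% in esophagus, a ratio of 0.679 to the lowest (0.586 to 0.787). None of its 6 loci lay above the pooled others, where 53.7% of all loci did. Beta-2-microglobulin (PB.24960), the light chain of class I molecules, held 0.242%, against 0.322% to 0.926%. The HLA class II gamma chain-like locus (PB.14131), the invariant chain, was just outside the threshold at 0.54 of the lowest. The list of other immune genes held 0.435%, against 0.463% in esophagus and up to 1.14%, a ratio to esophagus of 0.939 whose interval held 1 (0.749 to 1.19) and which turned to 1.36 with all counts as the denominator. Lysozyme C (PB.4422), an antibacterial enzyme, held 0.289%, between 0.268% in esophagus and 0.555% in ampullae. No locus matched the antibody list.

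Keratins were the most abundant transcripts of dorsal skin, yet their share there was the smallest of the 6 tissues. The 24 keratin loci summed to 5.09% of annotated counts in dorsal skin, against 17.9% in barbel, 14.3% in ampullae, 9.995% in mouth rim, 9.01% in upper palate and 5.78% in esophagus. Against esophagus the ratio was 0.88 (0.826 to 0.939), and it turned to 1.27 when all counts, unnamed ones included, were the denominator. None of the 12 keratin loci examined was higher or lower by the rule, and 3 lay above the pooled others (median ratio 0.70). The most abundant locus, PB.22701, held 2.36% in dorsal skin, against 15.4% in barbel, 7.72% in ampullae, 5.63% in mouth rim, 3.78% in upper palate and 0.0515% in esophagus. Without it, keratins in dorsal skin were 1.07-fold the lowest other tissue.

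The keratin locus PB.22698 set the outer surfaces apart from the mouth and gut. It held 0.932% in dorsal skin, against 1.25% in barbel and 2.15% in ampullae, and 0.0361% in mouth rim, 0.067% in upper palate and 0% in esophagus. Its transcripts matched several sterlet keratin proteins, and a single one of them took 1092 of its 1129 counts in dorsal skin, or 96.7% (Clopper-Pearson 95.5% to 97.7%), against 16.0% in barbel (14.6% to 17.6%) and 96.3% in ampullae (95.2% to 97.2%). The same protein also took 95.1% of the locus in mouth rim and 97.6% in upper palate, on 39 and 41 counts, so that barbel alone stood apart. For that protein dorsal skin had 0.901% of annotated counts, against 0.201% in barbel and 2.07% in ampullae. Keratins PB.25257, PB.20744 and PB.23354 held 0.623%, 0.472% and 0.271% in dorsal skin and were inside the range of the other tissues, with barbel the lowest in each. Near-identical keratins can exchange reads, so the split between proteins is uncertain.

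**Figure D5:**
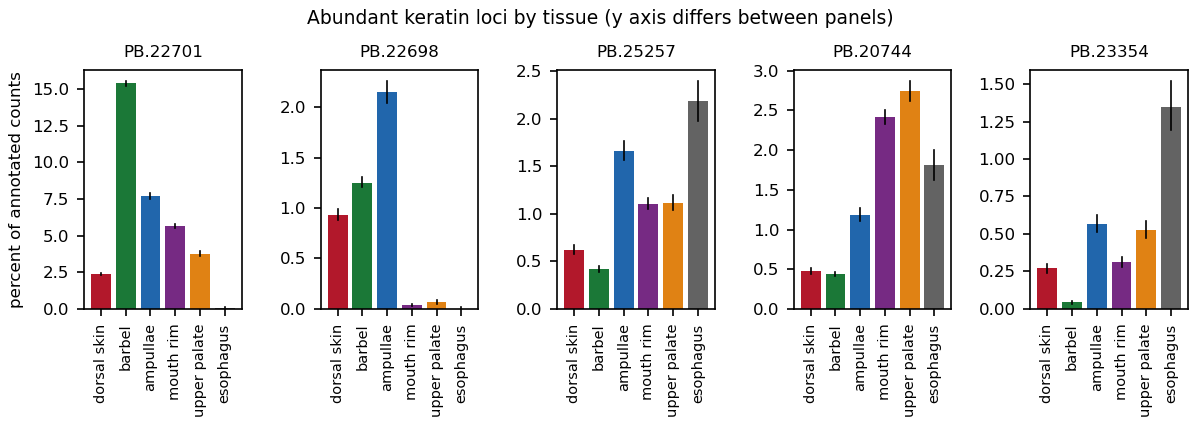
Share of annotated counts (y axis, percent, with its own range in each panel) of the 5 keratin loci that reached 1% in any tissue, 1 bar per tissue library from dorsal skin at the left to esophagus at the right, with bars for the 95% Clopper-Pearson interval. Dorsal skin is low for PB.22701 (2.36%, against 15.4% in barbel), next to barbel and ampullae for PB.22698, and inside the range of the others for the remaining 3.

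Transcripts of the desmosome list, as a sum, were inside the range of the other tissues, while some genes of the cell envelope had too few counts to compare. The desmosome list held 1.75% in dorsal skin, against 0.623% in esophagus to 2.16% in barbel. Plakophilin-1 held 1.15% and desmoplakin 0.359%, both inside the range of the other tissues, and so did periplakin at 0.162%. Envoplakin had 27 counts in dorsal skin, against 40, 4, 26, 1 and 1 in barbel, ampullae, mouth rim, upper palate and esophagus. Transglutaminase 1, which cross-links envelope proteins, had 3 counts in dorsal skin, against 2, 1, 4, 0 and 0, and quiescin sulfhydryl oxidase 1 had 1 count, so that neither could be compared. The transglutaminase 1 counts are those of the 1 locus named gamma-glutamyltransferase K. In its cultures the study found Tgm1A by qPCR at levels comparable to desmoplakin, and Tgm1B far lower. It also reports that relative Tgm1A and sulfhydryl oxidase levels by transcript number were compatible with qPCR of ventral skin, from laser-captured tissue and culture. Whether a copy of Tgm1A or Tgm1B carries another name here was not examined, so the counts above do not give the level of Tgm1A. Protein-glutamine gamma-glutamyltransferase 2-like (PB.21407), another transglutaminase, was higher with 12 counts in dorsal skin, against 7, 2, 3, 0 and 0 (ratio 2.77, 1.01 to 8.31). Cytochrome P450 1A, the enzyme induced through the aryl hydrocarbon receptor, had 1 count in dorsal skin, against 9 in barbel, 0 in ampullae, 37 in mouth rim, 11 in upper palate and 1 in esophagus, while cytochrome P450 3A was inside the range at 0.162%.

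After the first keratin, the most abundant loci of dorsal skin were annexin A1-like (PB.1945, 1.68%), actin (PB.12861, 1.32%), plakophilin-1-like (PB.21755, 1.14%), eukaryotic initiation factor 4A-I (PB.26194, 1.13%) and a 14-3-3 protein (PB.4693, 1.12%). Annexin A1, a calcium-dependent membrane binding protein, was higher in barbel (3.00%) and ampullae (2.24%) than in dorsal skin and lower in mouth rim (0.76%), palate (0.209%) and esophagus (0.0824%). Initiation factor 4A-I, the helicase that opens messenger RNA for ribosomes, was above all 5, at 1.13% in dorsal skin, against 0.37% to 0.794%, a ratio of 1.43 (1.29 to 1.58) that fell short of 2-fold. The annexin and S100 list was inside the range (2.52%, against 1.15% to 4.40%). The tight junction list was under it at 0.262%, against 0.334% to 0.624%. Of its 13 loci examined, 2 lay above the pooled others (median ratio 0.70, against 1.08 over all loci). Claudin-4-like (PB.20900) held 0.116%, against 0.203% to 0.362%. Without this locus the list was 1.10-fold the lowest tissue and so no longer under all 5.

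A model of the spread between tissues gave no calls. In edgeR's quasi-likelihood test of the dorsal skin library against the 5 other tissues, with the 5 sites standing in for replicates and the lone dorsal skin library assumed to vary as they do, 0 of 2492 loci (0%) passed a false discovery rate of 0.05. The smallest adjusted p was 0.764, 151 loci (6.06%) had an unadjusted p under 0.05, and DESeq2 also gave 0. The common dispersion of 0.353 measures how far different sites differ from each other. Of the 96 higher loci that entered the fit, 52 had an unadjusted p under 0.05, on the same counts that chose them.

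Cultured cells gave libraries that the choice had not used: 2 white sturgeon skin cultures against 3 white mouth rim cultures, 1 of these dodecaploid and the others octoploid. The site of the cultured skin is not stated beyond skin. Both skin cultures lay above all 3 mouth rim cultures for 723 of 4501 loci (16.1%) and under them for 411 (9.13%). Of the 91 higher loci measured there, 17 (18.7%) lay above and 4 (4.40%) under. Of all 3524 loci examined in the tissues and measured there, 489 (13.9%) lay above and 344 (9.76%) under. In edgeR's quasi-likelihood test 0 of 2071 loci (0%) passed a false discovery rate of 0.05 and 180 (8.69%) had an unadjusted p under 0.05. DESeq2 gave 13, and edgeR gave 220 without mouth rim culture 1. The 67 higher loci in that fit had a median log2 fold change of -0.05, against -0.06 for the 1895 loci examined in the tissues that entered it, and 2 had an unadjusted p under 0.05 with more in skin cultures and 1 with less.

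Among the 17 were prohibitin-2-like (PB.16087), with 26 and 24 counts in the skin cultures, against 11, 5 and 9 in the mouth rim cultures, and kit ligand-like (PB.13101), with 12 and 12, against 7, 10 and 6. Neither passed adjustment in edgeR (adjusted p 0.468 and 0.821). Vimentin-like (PB.3825) had 8 and 5 counts in skin cultures, against 3, 0 and 0. Glutathione S-transferase P-like (PB.2361) ran opposite to the tissue, with 34 and 14 counts in skin cultures, against 77, 128 and 155 in mouth rim cultures (log2 fold change -2.42, SE 0.49, adjusted p 0.233 in edgeR). Tyrosinase-like had 0 counts in both skin cultures. The 105 loci summed to 3.10% and 3.29% in skin cultures, against 2.97% to 3.35% in mouth rim cultures, and 6.80% in dorsal skin tissue.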

How the data were processed

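PacBio Iso-Seq counts of 18 libraries of sturgeon tissues and cultured cells were analysed. The deposited values are raw read counts for each transcript and library, which the authors made with the IsoSeq3 pipeline, alignment to the sterlet genome, Sqanti3 filtering with a minimum of 3 supporting reads, and naming by a blastp search of sterlet proteins. The aligner is not given in the sources used here, and the names in the table end at the first comma. Both the annotation by sterlet proteins and PCR before sequencing can change shares between loci, and reads without molecular identifiers are not independent molecules.

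Transcripts with a protein name (65116 of 70537) were summed by PacBio locus and divided by annotated counts. Ratios have exact conditional (Clopper-Pearson) 95% intervals, loci needed 10 counts over the 6 tissues, and folds over 0 counts used a floor of 3 counts over the 5 tissues together. The rule was tested on simulated data, as was edgeR (4.0.16, quasi-likelihood, TMM, filterByExpr, R 4.3.3), with DESeq2 (1.42.0) as an alternative. Other alternatives changed the denominator, fold, interval, filter, summing and reference tissues. The 2 skin and 3 mouth rim cultures were compared in the same way.

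Members, lists and rules were chosen with earlier results of these data known. The rule for naming took the 20 higher and 12 lower loci with intervals farthest from 1, the 10 most abundant dorsal skin loci, the top locus of each list and tyrosinase, keratins reaching 1%, and the genes of the epidermis that the study measured. Other loci named, roles and 9 lists were chosen after their values were seen. No sequences are printed.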

Additional observations from a re-analysis of the deposited data

Results flagged for a closer look

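In 5 loci the skin cultures stood on the other side from the tissue. Of the loci higher in dorsal skin than in all 5 other tissues, 4 had both skin cultures under all 3 mouth rim cultures. These are 4.40% of the 91 higher loci measured in the cultures, a smaller share than the 9.76% of all loci examined and measured there. The higher of the skin cultures had 0.0652% of annotated counts, against 0.0799% to 0.1% in mouth rim cultures, for WD repeat-containing protein 36 (PB.1739), and 0.027%, against 0.0814% to 0.126%, for glutathione S-transferase P-like (PB.2361). It had 0.0207%, against 0.0245% to 0.031%, for periodic tryptophan protein 1 homolog (PB.13196) and 0.00795%, against 0.00897% to 0.0133%, for SET and MYND domain-containing protein 5 (PB.2405). NAD(P)H-hydrate epimerase (PB.23227) was lower in dorsal skin, but the lower of the skin cultures, at 0.0111%, lay above all 3 mouth rim cultures (0.00163% to 0.00709%). It was 1 of 11 lower loci measured there (9.09%), against 13.9% of all loci. These differences between tissue and culture were not tested, and the last 2 of the 4 rest on 3 to 35 counts a culture.

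Pigment genes also appeared in libraries outside the tissue comparison. The sodium/potassium/calcium exchanger 5-like locus (PB.16400) had 5 counts in green sturgeon fibroblasts and adipocytes, where the 5 other white tissues had 0. Tyrosinase-like (PB.9649) had 4 counts in green ampullae culture 1, which also had 3 of the membrane-associated transporter protein (PB.909), and 0 in the other cultures.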

How the results depend on the processing

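The 105 higher and 13 lower loci were recomputed under each alternative. For higher loci the count was 68 with TMM scaling, 167 at 1.5-fold, 17 at 4-fold, 209 by fold alone, 47 with a stricter interval level, 1236 against the median of the other tissues by fold alone, 27 after thinning to the shallowest library, and 65 with the interval above 1 against each tissue, an alternative chosen after seeing the data. For lower loci it was 21 at 1.5-fold, 2 at 4-fold, 119 by fold alone, 3 with the stricter interval level, 6 over single transcripts, 33 against barbel, ampullae and mouth rim alone, 867 against the median by fold alone and 3 after thinning. Leaving out 1 other tissue at a time gave 119 to 157 higher and 13 to 56 lower loci, with 56 without barbel, 31 without ampullae and 21 without esophagus. Fewer tissues make the range narrower and a smaller library makes intervals wider by construction, and for the other settings the cause was not tested.

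In edgeR, dorsal skin against the other tissues gave 2 loci without a filter on low counts and 0 with each tissue left out in turn. Skin against mouth rim cultures gave 13 loci with DESeq2, 69 without a filter, and 0 to 220 with each library left out in turn, 220 of them without mouth rim culture 1. The lists outside the range with an interval past 1 numbered 14, and 14 to 19 with a tissue left out. With all counts as denominator, 3 of the 7 lists under all 5 other tissues turned above esophagus: keratin to 1.27, connective tissue to 1.10 and other immune to 1.36. The keratin list turned to 1.07 without its most abundant locus, the immediate early list to 1.90 and the tight junction list to 1.10 without theirs. No paired analysis was possible because each tissue has 1 library and the cultures' numbers follow accession order. With 1 library per site, differences between fish, pieces and sites cannot be told apart, and loci under about 10 counts in dorsal skin are limited by depth.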
